A study of Bos taurus with 16 samples.

Results

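Cholesterol synthesis and sterol regulation were followed in bovine blastocysts through 32 genes chosen by their place in the pathway, with earlier results of these data known, and all 32 were measured among the 15216 genes of the array. They comprised 20 enzymes of synthesis, 6 regulators and 6 genes of sterol transport and storage, and were read by 58 probes found through the platform's probe-to-gene table. MSMO1 and SC5D were listed there under the old symbols SC4MOL and SC5DL. NSDHL, EBP and MBTPS2 lie on the X chromosome (assembly ARS-UCD2.0) and the other 29 members on autosomes.

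The embryos were flushed from non-lactating Holstein cows at day 7.5 after insemination by the same sire. The cows had eaten oilseeds that were rolled, either canola as the oleic acid-rich control diet (CAN), sunflower with its linoleic acid (SUN), or flax with its α-linolenic acid (FLX), for at least 35 days, and had been superstimulated with follicle-stimulating hormone on all 3 diets. Whole blastocysts of similar stage were pooled within a cow, and 4 biological replicates of FLX and 4 of SUN were each hybridised with a CAN sample on 2 arrays, with the dyes exchanged between them. The sources used here do not give the number and sex of the embryos or the cows behind each replicate, and p-values measure the spread between these pools.

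Cholesterol is built from acetyl-CoA through mevalonate, isoprenoid diphosphates, squalene and lanosterol, and the last steps turn lanosterol into cholesterol. When sterols are scarce in the endoplasmic reticulum, the escort protein SCAP carries the transcription factor SREBP-2, the product of SREBF2, to the Golgi, where the proteases encoded by MBTPS1 and MBTPS2 release it. The factor then raises transcription of most genes of synthesis, while INSIG1 and INSIG2 hold SCAP back when sterols are plentiful. The early embryo needs sterol for the membranes of dividing cells.

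All values are log2 ratios of a diet sample over its CAN sample, averaged over an array and its dye exchange and over the probes of a gene. The deposited ratio was read as Cy5 over Cy3, a likely but unstated direction, and if it is the reverse every sign below turns. Ratios carry no absolute level, and in whole embryos fewer cells of a type and less RNA per cell cannot be told apart. FLX and SUN replicates of 1 number carried a CAN sample of the same number, so the diets' ratios may share that part. The labels do not say whether it was the same RNA pool. SUN replicate 3 stood apart from the other SUN replicates over all features, with correlations of −0.27, −0.25 and −0.24 to SUN replicates 2, 1 and 4. Those 3 correlated with each other at 0.19 to 0.30. The FLX replicates correlated with each other only at −0.27 to 0.067. The median standard error of a feature was 0.0703 for each diet over CAN and 0.0995 for FLX vs SUN.

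Most synthesis enzymes had a mean above 0 in SUN and below 0 in FLX, and no single gene passed the test. The FLX direction depended on the dye orientation, as the median was 0.021 with CAN in Cy3 only. Both arrays gave the same sign for 15, 16, 7 and 8 of 20 enzymes in FLX replicates 1 to 4. In SUN 16 of 20 enzymes had a mean above 0, against 50.2% of all features. The median log2 ratio was 0.23, with replicate medians of 0.45, 0.47, −0.21 and 0.23 in replicates 1 to 4 (SD 0.31, n = 4). In FLX 15 of 20 had a mean below 0, against 48% of all features. The median was −0.052, with replicate medians of −0.10, −0.070, −0.052 and 0.020. The enzyme medians were therefore above 0 in SUN replicates 1, 2 and 4, below 0 in SUN replicate 3 and near 0 in all FLX replicates. Above 0 were 16, 15, 4 and 15 of 20 enzymes in SUN replicates 1 to 4, and 6, 7, 8 and 11 in FLX. Single enzymes lay farther out in FLX, such as HSD17B7 at 0.39 in replicate 1 and −0.66 in replicate 3. The median over all features was 0.00053 in SUN and 0.0032 in FLX. A limma model over 37220 features, with Benjamini-Hochberg adjustment over all of them and a false discovery rate of 0.05 as the threshold, called 0 members and 0% of features in each of FLX vs CAN, SUN vs CAN and FLX vs SUN. At an unadjusted p under 0.05 there were 6 of 32 members in SUN against 6.44% of all features, 4 of them higher (3.59%) and 2 lower (2.85%) than CAN. There was 1 of 32 in FLX against 2.92%, lower than CAN (1.29%), and 1 of 32 in FLX vs SUN against 2.24%, lower in FLX (1.21%).

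**Figure D1:**
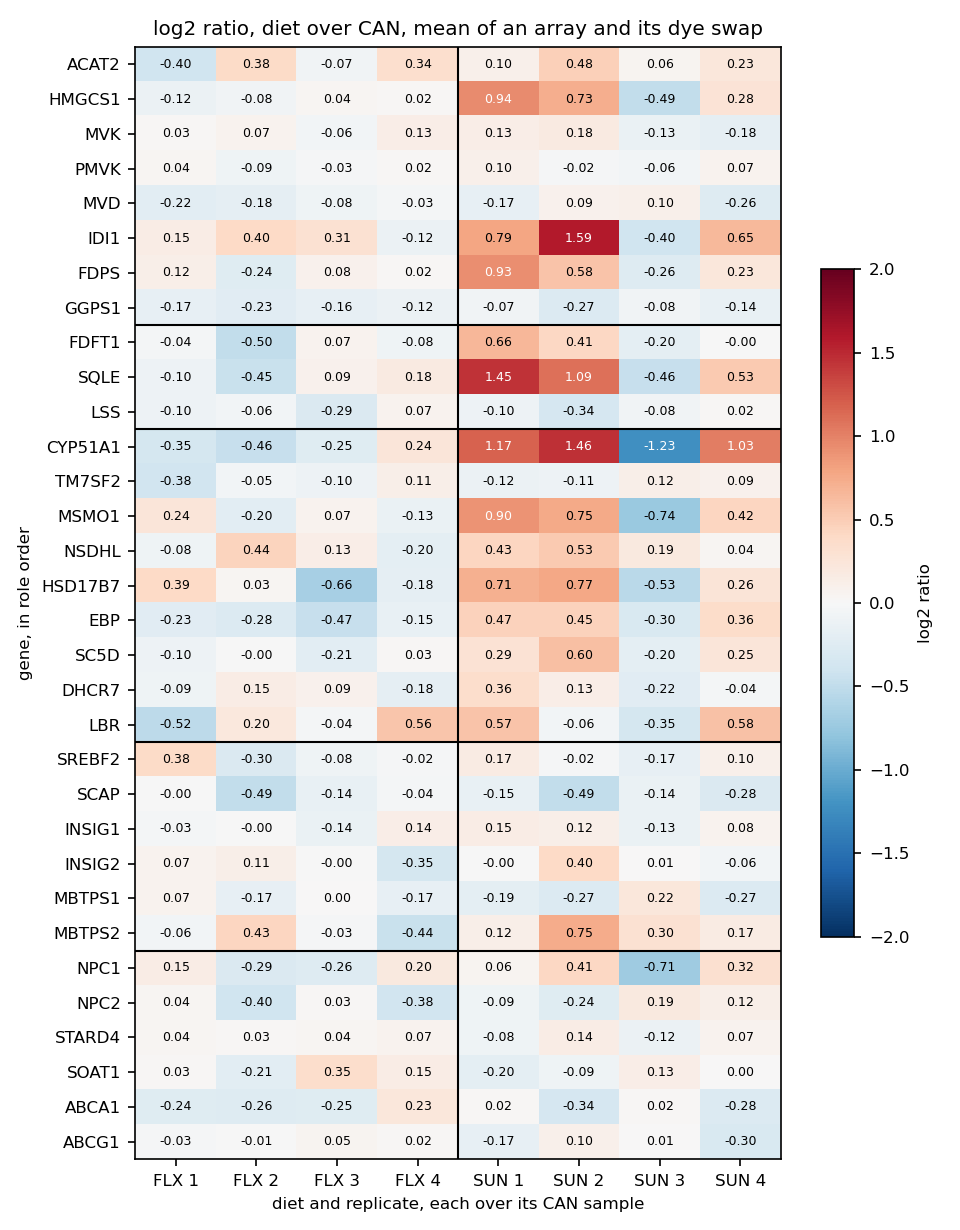
Log2 ratio of diet over CAN for each of the 32 members (rows, in role order, with lines between roles) in FLX replicates 1 to 4 and SUN replicates 1 to 4 (columns), coloured from blue (below 0) to red (above 0). The strongest colours are in the synthesis rows of SUN, red in replicates 1, 2 and 4 and blue in replicate 3, as in CYP51A1 at 1.17, 1.46, −1.23 and 1.03.

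Among the 8 genes of the mevalonate and isoprenoid steps, HMGCS1, IDI1 and FDPS carried the SUN pattern. HMGCS1, the cytosolic synthase that makes HMG-CoA, stood at 0.94, 0.73, −0.49 and 0.28 in SUN replicates 1 to 4 and at −0.12, −0.078, 0.036 and 0.025 in FLX replicates 1 to 4. IDI1, the isopentenyl diphosphate isomerase, stood at 0.79, 1.59, −0.40 and 0.65 in SUN and at 0.15, 0.40, 0.31 and −0.12 in FLX. FDPS, which makes farnesyl diphosphate, stood at 0.93, 0.58, −0.26 and 0.23 in SUN and at 0.12, −0.24, 0.085 and 0.017 in FLX. In all 3 genes SUN replicates 1 and 2 lay above every FLX replicate and SUN replicate 3 lay below every FLX replicate, so the diets overlapped. The mean in SUN was 0.66 ± 0.82 for IDI1 (mean ± SD, n = 4 here and below, 1.58-fold, limma standard error 0.26, adjusted p = 0.774), 0.37 ± 0.51 for FDPS (adjusted p = 0.778) and 0.36 ± 0.64 for HMGCS1 (adjusted p = 0.797). Of the 3, only IDI1 had an unadjusted p under 0.05. HMGCS1 was described in each replicate after its values were seen, as were HSD17B7, INSIG1 and NPC1 below.

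GGPS1 went the other way from these neighbours, with low values in both diets and little spread. This enzyme makes geranylgeranyl diphosphate, a branch that leads to lipid-modified proteins and away from sterols. It stood at −0.17, −0.23, −0.16 and −0.12 in FLX and at −0.075, −0.27, −0.077 and −0.14 in SUN, below 0 in all 8 replicates. The means were −0.17 ± 0.04 in FLX (standard error 0.047, adjusted p = 1.00 in limma) and −0.14 ± 0.09 in SUN (0.047, adjusted p = 0.774), both with an unadjusted p under 0.05, and the 2 comparisons may share CAN samples. In SUN the mean was −0.28 on the arrays with CAN in Cy3 and 0.00097 on those with CAN in Cy5, so the SUN value came from 1 dye orientation, whereas in FLX the corresponding means were −0.14 and −0.20.

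The other 4 genes of these steps did not share the SUN pattern. ACAT2, the cytosolic thiolase of the entry step, had 0.22 ± 0.19 in SUN, with all 4 replicates positive (0.061 to 0.48), and 0.064 ± 0.37 in FLX, where its replicates ran from −0.40 to 0.38. The kinases MVK and PMVK had 4.1e-05 ± 0.18 and 0.023 ± 0.07 in SUN and 0.041 ± 0.08 and −0.015 ± 0.06 in FLX. The decarboxylase MVD had −0.060 ± 0.18 in SUN and −0.13 ± 0.09 in FLX, where all 4 replicates were negative.

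Of the squalene and lanosterol steps, SQLE was high in SUN replicates 1, 2 and 4, FDFT1 in replicates 1 and 2 alone, and LSS in none. SQLE, the squalene epoxidase, stood at 1.45, 1.09, −0.46 and 0.53 in SUN and at −0.098, −0.45, 0.087 and 0.18 in FLX. FDFT1, the squalene synthase, stood at 0.66, 0.41, −0.20 and −0.0011 in SUN and at −0.036, −0.50, 0.071 and −0.080 in FLX. SUN replicates 1 and 2 were again the highest of the 8 replicates for both genes. The SUN mean was 0.65 ± 0.84 for SQLE (1.57-fold, standard error 0.27, adjusted p = 0.774 in limma, unadjusted p under 0.05) and 0.22 ± 0.39 for FDFT1 (adjusted p = 0.802). The FDFT1 probes differed, with 1.19, 0.61, −0.58 and 0.42 in SUN for EMBV3_14929 and 0.13, 0.21, 0.19 and −0.43 for EMBV3_23196. LSS, the lanosterol synthase, had −0.12 ± 0.15 in SUN and −0.095 ± 0.15 in FLX.

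The 9 genes from lanosterol to cholesterol held the widest values, and 8 of them had a mean above 0 in SUN (median 0.24). CYP51A1, the lanosterol demethylase, stood at 1.17, 1.46, −1.23 and 1.03 in SUN and at −0.35, −0.46, −0.25 and 0.24 in FLX. MSMO1, the methylsterol monooxygenase, stood at 0.90, 0.75, −0.74 and 0.42 in SUN and at 0.24, −0.20, 0.072 and −0.13 in FLX. HSD17B7, the keto-reductase of the same demethylation complex, stood at 0.71, 0.77, −0.53 and 0.26 in SUN and at 0.39, 0.033, −0.66 and −0.18 in FLX. CYP51A1 and MSMO1 were high in SUN replicates 1, 2 and 4 and lowest of all 8 replicates in SUN replicate 3, whereas HSD17B7 was lowest in FLX replicate 3. The SUN means were 0.61 ± 1.24 for CYP51A1 (1.52-fold, adjusted p = 0.80), 0.34 ± 0.74 for MSMO1 (adjusted p = 0.808) and 0.30 ± 0.60 for HSD17B7 (adjusted p = 0.812 in limma), each within its spread.

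NSDHL and EBP differed in how far the diets shared a direction. NSDHL, the sterol dehydrogenase of C4 demethylation, stood at 0.43, 0.53, 0.19 and 0.042 in SUN and at −0.078, 0.44, 0.13 and −0.20 in FLX. It was positive in 4 of 4 SUN replicates, at 0.30 ± 0.22 (1.23-fold, standard error 0.11, adjusted p = 0.774 in limma, unadjusted p under 0.05). EBP, the sterol isomerase, stood at 0.47, 0.45, −0.30 and 0.36 in SUN and at −0.23, −0.28, −0.47 and −0.15 in FLX. EBP was thus negative in all FLX replicates (mean −0.28 ± 0.14, adjusted p = 1.00 in limma) and positive in 3 of 4 SUN replicates (0.24 ± 0.37, adjusted p = 0.794), and 1 SUN replicate lay within the FLX range. Both genes are on the X chromosome, and the synthesis median without them was 0.22 in SUN and −0.052 in FLX.

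The remaining sterol steps had smaller means. SC5D, the sterol desaturase, had 0.23 ± 0.33 in SUN and −0.072 ± 0.11 in FLX. The FLX mean of SC5D was 0.14 with CAN in Cy3 and −0.28 with CAN in Cy5, so its sign depended on the dye orientation. LBR, a nuclear envelope protein with sterol reductase activity, had 0.18 ± 0.47 in SUN and 0.050 ± 0.46 in FLX. DHCR7, which catalyses the last reduction to cholesterol, had 0.057 ± 0.25 in SUN and −0.0077 ± 0.15 in FLX. TM7SF2, the other sterol C14 reductase, had −0.0040 ± 0.13 in SUN and −0.10 ± 0.20 in FLX, and its FLX mean was −0.41 with CAN in Cy3 and 0.20 with CAN in Cy5.

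**Figure D2:**
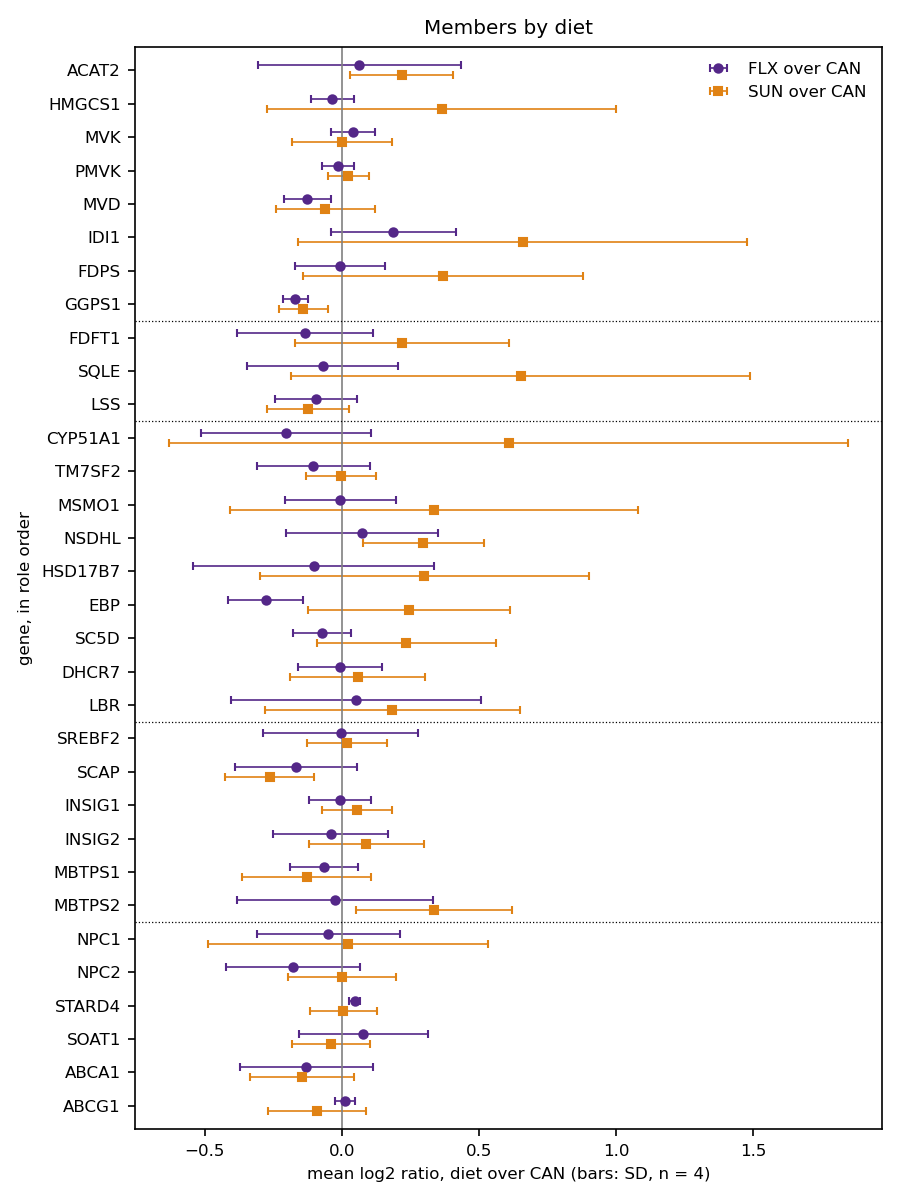
Mean log2 ratio over CAN for each member (rows, in role order, with dotted lines between roles) in FLX (circles) and SUN (squares), with bars for the SD over 4 replicates. The SUN squares of IDI1, SQLE and CYP51A1 reach 0.61 to 0.66 with wide bars, and most regulators and transport genes lie near 0 in both diets.

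The 6 regulators showed no common direction in SUN, where 4 had a mean above 0 (median 0.036, replicate medians 0.059, 0.049, −0.060 and 0.011). In FLX all 6 had a mean below 0, though the median was only −0.033. SCAP, the escort of SREBP, stood at −0.15, −0.49, −0.14 and −0.28 in SUN and at −0.0018, −0.49, −0.14 and −0.039 in FLX. MBTPS2, the site-2 protease, stood at 0.12, 0.75, 0.30 and 0.17 in SUN and at −0.055, 0.43, −0.028 and −0.44 in FLX. SCAP was below 0 and MBTPS2 above 0 in 4 of 4 SUN replicates, with means of −0.26 ± 0.16 (standard error 0.09) and 0.34 ± 0.29 (0.14), both with an unadjusted p under 0.05 and an adjusted p of 0.774 in limma. The SCAP mean in SUN was −0.051 with CAN in Cy3 and −0.48 with CAN in Cy5, so its size depended on the dye orientation.

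SREBF2 and INSIG1, which SREBP-2 itself is known to induce in human and mouse cells, had means near 0. INSIG1 had 0.054 ± 0.13 in SUN and −0.0078 ± 0.11 in FLX. Its SUN values of 0.15, 0.12, −0.13 and 0.077 in replicates 1 to 4 had the signs of CYP51A1. The INSIG1 mean without SUN replicate 3 was 0.12 (adjusted p = 0.537 in limma). Among its 3 probes only EMBV3_18281 had these signs. EMBV3_36644 was positive in every SUN replicate (0.0072 to 0.52), and EMBV3_40898 stood at 0.15, −0.25, −0.17 and 0.0056. SREBF2 had 0.019 ± 0.15 in SUN and −0.0043 ± 0.28 in FLX, but its 3 probes disagreed in SUN. Probe EMBV3_37027 stood at 0.45 ± 0.17, with 0.51, 0.48, 0.20 and 0.60 in SUN replicates 1 to 4 (adjusted p = 0.774 in the limma fit of single probes), whereas EMBV3_05613 stood at −0.25 ± 0.25 and EMBV3_33652 at −0.14 ± 0.09. INSIG2 had 0.088 ± 0.21 in SUN and −0.041 ± 0.21 in FLX, and MBTPS1, the site-1 protease, −0.13 ± 0.23 in SUN and −0.065 ± 0.12 in FLX.

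The transport and storage genes had medians of −0.020 in SUN and −0.019 in FLX, with replicate medians in SUN from −0.082 to 0.037. NPC2, the soluble sterol carrier of the lysosome, stood at −0.086, −0.24, 0.19 and 0.12 in SUN and at 0.039, −0.40, 0.030 and −0.38 in FLX. Its SUN mean was 0.33 with CAN in Cy3 and −0.34 with CAN in Cy5, so the SUN sign depended on the dye orientation. ABCA1, an exporter of cholesterol that is induced by liver X receptors, stood at 0.016, −0.34, 0.017 and −0.28 in SUN and at −0.24, −0.26, −0.25 and 0.23 in FLX. Neither gene kept a sign across the replicates of a diet. NPC1, the membrane partner of NPC2, had 0.021 ± 0.51 in SUN, with 0.061, 0.41, −0.71 and 0.32 in replicates 1 to 4, and −0.050 ± 0.26 in FLX. Its SUN values had the signs of CYP51A1 in the same replicates, but the signs in replicates 1 and 4 depended on the dye orientation. These 2 replicates read 0.21 and 0.66 with CAN in Cy3 and −0.087 and −0.019 with CAN in Cy5. STARD4, a cytosolic sterol carrier, was positive in 4 of 4 FLX replicates but small (0.047 ± 0.02), and had 0.0049 ± 0.12 in SUN. SOAT1, which esterifies cholesterol for storage, had −0.039 ± 0.14 in SUN and 0.078 ± 0.24 in FLX, and the exporter ABCG1 −0.092 ± 0.18 and 0.011 ± 0.04.

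**Figure D3:**
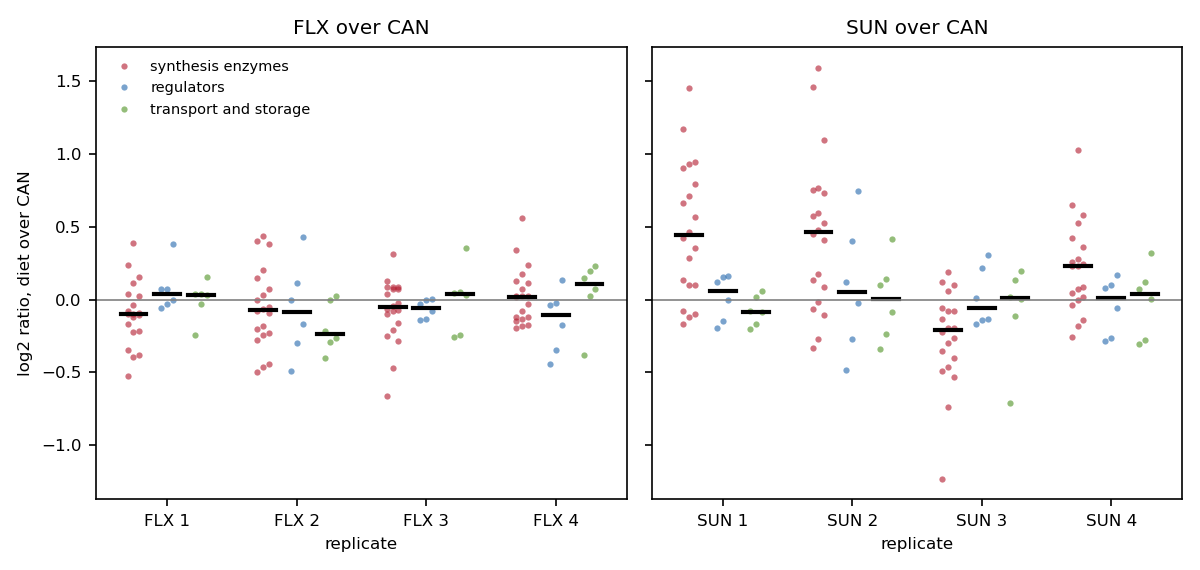
Log2 ratio over CAN of every member (points) by replicate in FLX (left) and SUN (right), with synthesis enzymes in red, regulators in blue, transport and storage genes in green, and black bars for class medians. The synthesis medians are 0.45, 0.47, −0.21 and 0.23 in SUN replicates 1 to 4, whereas the regulator medians in SUN lie between −0.060 and 0.059.

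Within a replicate, the synthesis median lay above the regulator median by 0.39, 0.42 and 0.22 in SUN replicates 1, 2 and 4 and below it in replicate 3 (difference −0.15), with a mean difference of 0.22 ± 0.26 (n = 4). Against the transport and storage genes the SUN differences were 0.53, 0.46, −0.22 and 0.19 (0.24 ± 0.34). In FLX the corresponding mean differences were 0.0015 ± 0.11 and −0.036 ± 0.14. The gap between synthesis enzymes and the other classes in SUN was thus smaller than its own spread over the 4 replicates, and its sign held in 3 of them. By single genes, 22 of 32 members had a mean above 0 in SUN against 50.2% of all features, and 24 of 32 a mean below 0 in FLX against 48%. Positive in 4 of 4 SUN replicates were 3 members (ACAT2, NSDHL and MBTPS2) against 6.67% of features, and negative in 4 of 4 were 2 (GGPS1 and SCAP) against 7.09%. In FLX STARD4 was positive in 4 of 4 replicates (5.34% of features) and 4 members were negative (MVD, GGPS1, EBP and SCAP, against 4.85%).

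The typical member differed between replicates more widely than most features in both diets, at a median SD percentile of 70.3 in SUN and 71.2 in FLX. The SD over the 4 SUN replicates was above the 95th percentile of all features for 6 members, namely HMGCS1, IDI1, SQLE, CYP51A1, MSMO1 and HSD17B7, all synthesis enzymes. None of the 32 reached that percentile in FLX. The median SD of the members was 0.215 in SUN and 0.207 in FLX, against 0.147 and 0.126 over all features.

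Both arrays of every SUN replicate gave the same sign for each of these 6 enzymes, though not always the same value. CYP51A1 read 0.89, 1.56, −1.28 and 1.08 with CAN in Cy3 and 1.45, 1.36, −1.18 and 0.98 with CAN in Cy5 in SUN replicates 1 to 4. IDI1 read 0.79, 1.61, −0.38 and 0.78 with CAN in Cy3 and 0.80, 1.58, −0.41 and 0.52 with CAN in Cy5. HSD17B7 in SUN replicate 2 read 1.03 with CAN in Cy3 and 0.50 with CAN in Cy5, so sizes could differ where signs did not. Of the 20 synthesis enzymes, 17, 15, 17 and 15 had the same sign on both arrays of SUN replicates 1 to 4. This held for 47.2%, 50.6%, 59.9% and 55.0% of all features in the same replicates. In FLX the counts were 15, 16, 7 and 8 of 20, against 51.5% to 56.7%.

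**Figure D4:**
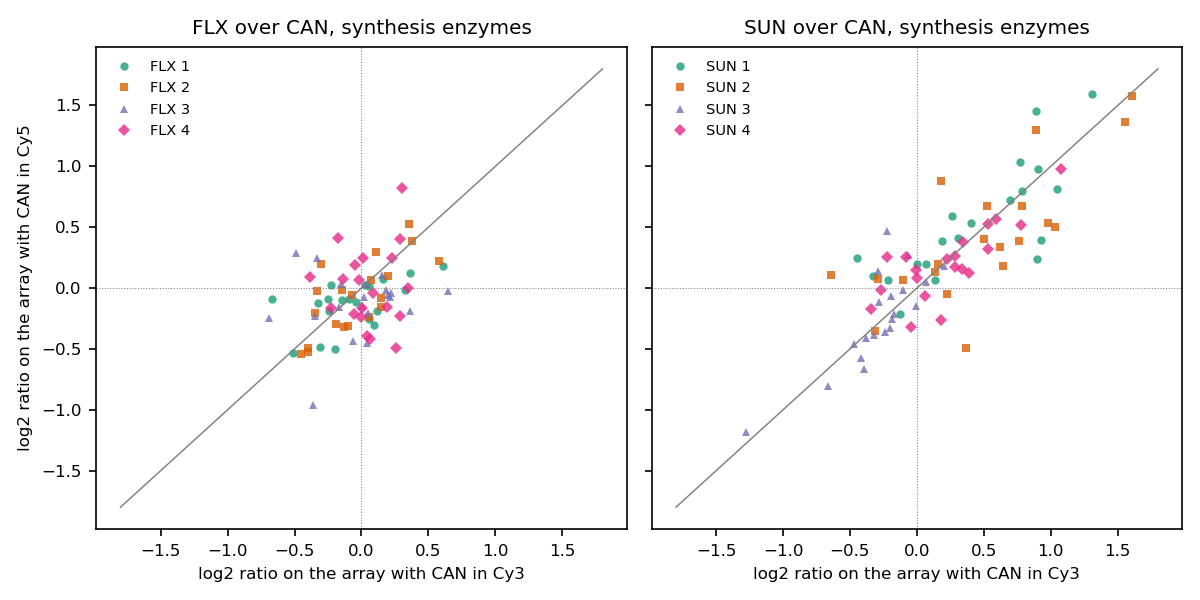
Log2 ratio over CAN of the 20 synthesis enzymes on the array with CAN in Cy3 (horizontal axis) and on its dye exchange with CAN in Cy5 (vertical axis), by replicate (symbols), for FLX (left) and SUN (right), with a line where both are equal. In SUN 15 to 17 of 20 points per replicate have the same sign on both arrays, with CYP51A1 in replicate 3 at −1.28 and −1.18, and in FLX 7 to 16 of 20 do.

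Probes of 1 gene differed in size and often in sign. Of the 15 members with more than 1 probe, all probes had 1 sign in 7 in SUN and 5 in FLX. CYP51A1 probe EMBV3_11161 stood at 2.45, 2.84, −3.03 and 2.68 in SUN replicates 1 to 4, while EMBV3_02333 stood at 0.79, 0.90, −0.15 and 0.20 and EMBV3_33438 at 0.27, 0.64, −0.50 and 0.20. HMGCS1 probe EMBV3_14732 stood at 2.43, 1.93, −1.25 and 1.13, whereas EMBV3_24024 kept between −0.16 and 0.13. MSMO1 probe EMBV3_13438 stood at 1.85, 1.60, −1.21 and 0.89, whereas EMBV3_08198 kept between −0.14 and 0.11. The mean over probes is therefore smaller than the value of the most responsive probe in each of these genes, and the sign by replicate was the same in all 3 CYP51A1 probes. Of the 4 FDPS probes, 3 had similar SUN means (0.43 to 0.61) and the last stood at −0.018.

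**Figure D5:**
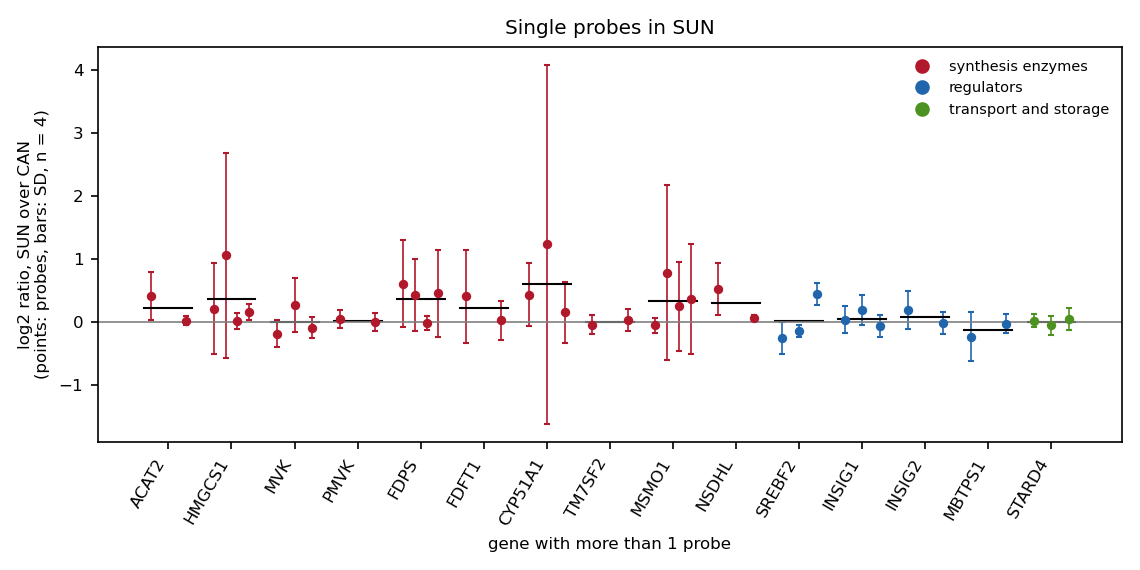
Mean log2 ratio of SUN over CAN for each probe (points, with bars for the SD over 4 replicates) of the 15 members with more than 1 probe, coloured by class, with black lines for the gene's mean over probes. CYP51A1 spans probe means from 0.15 to 1.23, HMGCS1 from 0.012 to 1.06, and the SREBF2 probes lie on both sides of 0.

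SUN replicate 3 stood apart over all features, yet its array and dye exchange correlated best of the SUN replicates. These correlations were 0.165, 0.464, 0.596 and 0.298 in SUN replicates 1 to 4. Why replicate 3 stood apart was not tested. Without SUN replicate 3 the synthesis median in SUN was 0.36. Then 14 of 32 members had an unadjusted p under 0.05, against 10.7% of all features. They were 11 synthesis enzymes above 0, GGPS1 below 0, and the regulators SCAP and MBTPS1 below 0. CYP51A1 then stood at 1.22 (limma standard error 0.14, adjusted p = 0.129), SQLE at 1.02 (0.18, 0.264), IDI1 at 1.01 (0.18, 0.264), MSMO1 at 0.69 (0.11, 0.255) and HMGCS1 at 0.65 (0.11, 0.264). None of the 32 passed the false discovery rate, and 2 of all features did (0.00537%). Without SUN replicate 2 the synthesis median was 0.15, and only ABCG1, at −0.16, had an unadjusted p under 0.05 (4.19% of all features). The SUN count was 3 without SUN replicate 1 (5.88% of features) and 2 without SUN replicate 4 (5.13%), so every replicate moved it. Without FLX replicate 4 the FLX count was 2 (4.27%), and without FLX replicate 2 the count in FLX vs SUN was 3 (2.2%). On the 16 arrays fitted singly with a dye term, the 2 arrays of a replicate were tied by 1 correlation of 0.272 for all features. Arrays of a replicate are not independent samples, and that value was not fitted gene by gene. In this fit 11 of 32 members had an unadjusted p under 0.05 in SUN (7.58% of features, and 0.0134% past the false discovery rate, no member among them), and 5 of 32 in FLX vs SUN (2.54%).

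Trophectoderm markers, from the outer cell layer of the blastocyst, had the same signs by replicate in SUN as the synthesis enzymes. In SUN 13 of 17 measured markers had a mean above 0, with replicate medians of 0.12, 0.73, −0.29 and 0.15, and in FLX 6 of 17, with −0.085, −0.13, −0.26 and 0.15. PAG2 and PAG12, pregnancy-associated glycoproteins of trophoblast, had the smallest p in SUN, at 0.85 ± 0.63 and 0.71 ± 0.56, neither past the false discovery rate (adjusted p = 0.774 for each in limma). The part of cell makeup in the sterol values was not tested. Replicate medians in SUN of inner cell mass markers ran from −0.26 to 0.18, of hypoblast markers from −0.086 to 0.038, of oocyte markers from −0.072 to 0.021, of uterine epithelium markers from −0.072 to 0.083 and of blood markers from −0.063 to 0.031. Cumulus and granulosa markers had 7 of 10 means above 0 in SUN (replicate medians 0.034 to 0.097), with FSHR, the receptor of follicle-stimulating hormone, at 0.22 ± 0.17 (adjusted p = 0.776 in limma).

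Set against each other through CAN, FLX embryos had lower values than SUN embryos for 18 of 20 synthesis enzymes, with a median difference of −0.26 and medians by replicate number of −0.50, −0.43, 0.052 and −0.18. For the regulators the median difference was −0.042 and for the transport and storage genes 0.029. Over all members 24 of 32 differences were below 0, against 49.5% of features. EBP had the lowest p of the members, with differences of −0.69, −0.73, −0.17 and −0.51 by number (mean −0.52 ± 0.26, standard error 0.17, adjusted p = 1.00 in limma). The largest mean differences, −0.81 ± 1.28 for CYP51A1 and −0.72 ± 1.02 for SQLE, lay within their spread (adjusted p = 1.00 for both). By number, 5 members were lower in FLX all 4 times (NSDHL, HSD17B7, EBP, SC5D and MBTPS2), against 6.71% of features. There were 0 members higher all 4 times, against 6.6%. The 5 include all 3 X-linked members, NSDHL, EBP and MBTPS2, and the part of embryo sex was not tested. Of the 18 synthesis enzymes on autosomes, 16 were lower in FLX (median −0.23), 2 of them all 4 times. In this comparison 0 of those 18 had an unadjusted p under 0.05. There were 0 members whose FLX and SUN values did not overlap, against 0.948% of features with FLX lower and 0.97% with FLX higher.

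With the replicate number as a block, 4 members had an unadjusted p under 0.05 in FLX vs SUN, against 5.12% of features. They were EBP, the regulator MBTPS2 at −0.36, HSD17B7 at −0.40 and SC5D at −0.31 (standard errors 0.11, 0.09, 0.11 and 0.11). All were lower in FLX and had an adjusted p of 0.888 in limma. The size of the SC5D difference depended on the dye orientation, at −0.053 with CAN in Cy3 and −0.56 with CAN in Cy5. Without SUN replicate 3 and without the block, 10 synthesis enzymes and no other member had an unadjusted p under 0.05 (4.83% of features), with CYP51A1 at −1.43 and EBP at −0.71, both with an adjusted p of 0.436.

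The lists of other genes around the pathway had medians near 0, with single genes farther out. Among 13 measured genes of the isoprenoid branch and prenylation, medians were −0.040 in SUN and −0.0020 in FLX, and NUS1, a subunit of the dolichol-making transferase, had 0.22 ± 0.23 in SUN (adjusted p = 0.774 in limma, unadjusted p under 0.05). Among 14 genes of sterol sensing, degradation and electron supply, medians were 0.034 and 0.0015. The SUN replicate medians of that list were 0.044, 0.24, −0.13 and 0.064, with the signs of the synthesis medians. Above 0 were 7, 9, 4 and 10 of the 14 genes in SUN replicates 1 to 4, and 6 had a SUN mean below 0. ERLIN2, which takes part in sterol-regulated protein degradation, stood at 0.70, 1.20, −0.49 and 0.24 in SUN (0.41 ± 0.72, adjusted p = 0.797 in limma), and CYB5R3, a cytochrome b5 reductase, at 0.52, 0.67, −0.33 and 0.16. MYLIP, a ubiquitin ligase, stood at 0.71, 0.46, −1.22 and 0.66, and RNF139, another, at 0.39, 0.31, −0.39 and 0.45. These 4 genes and the 2 named below, SCARB2 and HSD3B1, were chosen after their values were seen. CYB5B, a cytochrome b5 of the outer mitochondrial membrane, had 0.29 ± 0.22 in SUN with 4 of 4 replicates positive, and SREBF1, the sister gene of SREBF2 that favours fatty acid synthesis, had −0.31 ± 0.22 in FLX and −0.20 ± 0.34 in SUN, where the CYB5B value and the FLX value of SREBF1 had an unadjusted p under 0.05. For 21 genes of sterol uptake, traffic and efflux the medians were 0.018 and 0.024, with SUN replicate medians of 0.0090, 0.10, −0.16 and −0.011. For 9 genes of oxysterol and steroid use they were 0.035 and −0.075, with −0.0094, 0.24, −0.26 and 0.12. Above 0 in SUN replicate 3 were 5 of the 21 and 0 of the 9 genes, against 7 of the 13 isoprenoid genes. Low values in SUN replicate 3 were thus not limited to synthesis enzymes. None of the 30 genes of uptake and of oxysterol and steroid use had an unadjusted p under 0.05 in any comparison. The widest SUN means among them were 0.65 ± 1.18 for SCARB2, a lysosomal membrane protein, with 0.20, 2.21, −0.57 and 0.79 by replicate, and 1.10 ± 1.55 for HSD3B1, a steroid dehydrogenase, with 1.70, 2.61, −1.04 and 1.15. Both had a high replicate 2 and a low replicate 3. No gene of these lists passed the false discovery rate in limma.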

How the data were processed

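The authors deposited 1 normalised log2 ratio of the dyes per probe and array, for 43794 probes and 16 arrays. Per the labels, each array carried a CAN and a diet sample in Cy3 and Cy5. The sources used here do not give base, scaling, centring and direction, and the base was taken as 2 and the direction as Cy5 over Cy3. Array medians ran from −0.0139 to 0.00947. Spot intensities were not used here, so signal over background is unknown and no dim probe was filtered. The number of arrays limits the precision.

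Arrays were turned to diet over CAN, dye exchanges averaged (n = 4 per diet), and probes averaged per gene. Of the probes, 21790 had 1 gene symbol (1524 updated through the ARS-UCD2.0 gene table) and 22004 had none and were kept singly, giving 37220 features. After turning, an array and its dye exchange correlated at 0.165 to 0.616. One limma 3.58.1 fit (R 4.3.3, lmFit, eBayes; degrees of freedom 6 residual and 2.34 prior) over all 8 replicates gave the contrast of each diet with CAN and of FLX with SUN, two-sided, adjusted over all features. It was also run on simulated data with 200 changed features. No result of that run is given here, so it does not speak for changes of the size seen in these data. The SD of FLX vs SUN is over differences of equal replicate number, whereas its p is from the fit without pairing.

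FLX and SUN replicates of 1 number carry CAN samples of 1 number in the labels, and their deviations from the diet means correlated at 0.419, 0.567, 0.533 and 0.401, so the numbers pair the samples and the blocked fit is given beside FLX vs SUN where it moves a count. Class medians are described without a test. Members, gene lists and marker lists were chosen with earlier results of these data known. All 32 members were named. Values by replicate were given for members with unadjusted p under 0.05 and the 2 largest means per role. Genes of other lists were named at unadjusted p under 0.05, up to 4 per list, and up to 3 per marker list. Figures used matplotlib 3.10.9 in Python 3.11.15.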

Additional observations from a re-analysis of the deposited data

Results flagged for a closer look

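In each diet, 1 replicate was set against the other 3 for every member and class median, 70 groups of 4 in all, by the gap to its neighbour over the whole range. Chance flags about 1 group in 20, and 5 groups stood out. In SUN replicate 3, CYP51A1 stood at −1.23 (the other 3 at 1.03 to 1.46), EBP at −0.30 (0.36 to 0.47) and MBTPS1 at 0.22 (−0.27 to −0.19). INSIG2 stood at 0.40 in SUN replicate 2 (the others −0.056 to 0.012). ABCA1 stood at 0.23 in FLX replicate 4 (the others −0.26 to −0.24).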

How the results depend on the processing

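No alternative brought a member past the false discovery rate of 0.05, and the lowest adjusted p over all alternatives was 0.175 in FLX vs CAN, 0.129 in SUN vs CAN and 0.436 in FLX vs SUN. The mean kept its sign in every alternative run for 11 of 32 members in FLX, 18 in SUN and 18 in FLX vs SUN. The synthesis median kept its sign in SUN (0.15 to 0.36 with a replicate left out) and in FLX vs SUN (−0.38 to −0.17), but in FLX it turned to 0.021 with CAN in Cy3 only. Regulator medians moved to −0.036 in SUN with the median of a gene's probes and to −0.10 in FLX with CAN in Cy5 only, and the SUN transport median to −0.13 with CAN in Cy5 only. Leaving out a replicate gave regulator medians of −0.095 to −0.014 in FLX and −0.0044 to 0.098 in SUN, and transport medians of −0.081 to 0.011 in SUN. The count at unadjusted p under 0.05 in FLX (1 member) was 3 on the arrays with CAN in Cy3 (11.9% of features), 2 on those with CAN in Cy5 (6.88%), 2 with arrays scaled to equal SD (3.59%), 2 with slide as a random block (3.93%) and 1 to 2 with a replicate left out. In SUN (6 members) it was 11 on 16 arrays with a dye term (7.58% of features) and 1 to 14 with a replicate left out. In FLX vs SUN (1 member) it was 2 on the arrays of either dye orientation alone (4.73% with CAN in Cy3 and 4.66% in Cy5), 5 on 16 arrays with a dye term (2.54% of features), 4 with the replicate block (5.12%), 1 to 10 with a replicate left out, and 10 without replicate number 3 of both diets (3.35%), an alternative chosen after seeing the data. Apart from these counts the replicate block changed no call. Fewer samples enter the fits with 1 dye orientation or a replicate left out, and the cause of the other changes was not tested.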
